A study of Mus musculus with 10 samples.

Results

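The hippocampi of mice that had been treated with levetiracetam (LEV) after status epilepticus (SE) were compared at 6 h and at 2 days. The comparison used 4 of the 10 mice of the series, namely 2 SE + LEV 6 h mice and 2 SE + LEV 2 days mice, and covered all genes. Each mouse gave 1 library of cap analysis of gene expression (CAGE), which reads the capped 5′ end of RNA molecules, so that a tag lies where transcription began. The values are tag counts scaled to library depth (CPM, as deposited) for each of 15900 genes, from the whole hippocampus. All mice were male ICR (CD-1) mice, aged 9 to 10 weeks when SE was induced, and no allele was altered. The mice of both LEV groups had received methyl scopolamine (1 mg/kg), pilocarpine (PILO, 290 mg/kg) and, once 5 generalized convulsive seizures had defined SE, diazepam (10 mg/kg) to end it. Oral LEV at 360 mg/kg was started within 30 min and continued with 2 doses a day, so that the SE + LEV 6 h mice had received 1 dose and the SE + LEV 2 days mice 5 doses. Time after SE and number of LEV doses therefore cannot be told apart in this comparison. The untreated counterparts, SE 6 h and SE 2 days, were given everything except LEV. The pre-SE mice had no SE and no LEV. The paper gave its control mice saline in place of PILO, and calls the pre-SE mice control in some places and naive in others. Each of these groups also held 2 mice.

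SE is a prolonged seizure that starts the process by which a healthy brain becomes epileptic. In its first hours neurons switch on immediate early genes. These encode short-lived transcription factors, such as those of the AP-1 family, and synaptic effector proteins. Over the following days microglia, the resident macrophages of the brain, divide and turn reactive, astrocytes build up intermediate filaments, and cytokines, complement and interferons signal between glia, neurons and vessels. LEV is an antiseizure drug that binds the synaptic vesicle protein SV2A, and the study asked how it alters hippocampal gene expression in this period.

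Genes were tested on log2(CPM + 0.1), and a difference on that scale (logFC) is positive where SE + LEV 2 days mice were higher. It understates the change of genes with low CPM. A gene was called at an adjusted p of at most 0.05 in limma's moderated test with Benjamini-Hochberg adjustment over 15851 genes. An exact permutation test of 2 mice against 2 cannot go below a two-sided p of 0.333, and every call rests on the spread that limma shares across genes and across the 10 libraries. In whole tissue, more cells of a type and more RNA per cell cannot be told apart.

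Library depth ran from 10540698 to 51710968 tags. The shallowest library was SE + LEV 6 h replicate 2, in which 3 tags were worth 0.285 CPM. Choroid plexus markers differed between the mice of a group far more than between the times. The 6 markers summed to 876 and 42.2 CPM in the SE + LEV 6 h mice and to 1510 and 28.0 CPM in the SE + LEV 2 days mice, with replicate 1 first. Replicate 1 was the high mouse at both times, and none of the 6 markers was called. The part of this tissue in the results was not tested. *Actb*, the reference gene of the study's PCR, was at 3168 and 2513 CPM at 6 h and at 7238 and 2712 CPM at 2 days (adjusted p = 0.621, limma).

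From 6 h to 2 days with LEV, 327 genes rose and 12 fell, which is 2.06% and 0.0757% of the genes tested. All 339 had 2 groups that did not overlap, as did many genes that were not called, since 26.6% of all genes had both SE + LEV 2 days mice above both SE + LEV 6 h mice and 14.6% had both below. The genes that rose were led by interferon-stimulated genes, genes of cell division and genes of microglia, with a median logFC of 2.83 against 0.09 over all genes, and 270 of them had a logFC above 2. The genes that fell had a median logFC of -1.79 and included the transcription factors *Maff* and *Klf4*. Of the 29 gene lists examined, only the list of immediate early transcription factors held called genes that fell. The lists accounted for 72 of the 327 genes that rose.

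**Figure D1:**
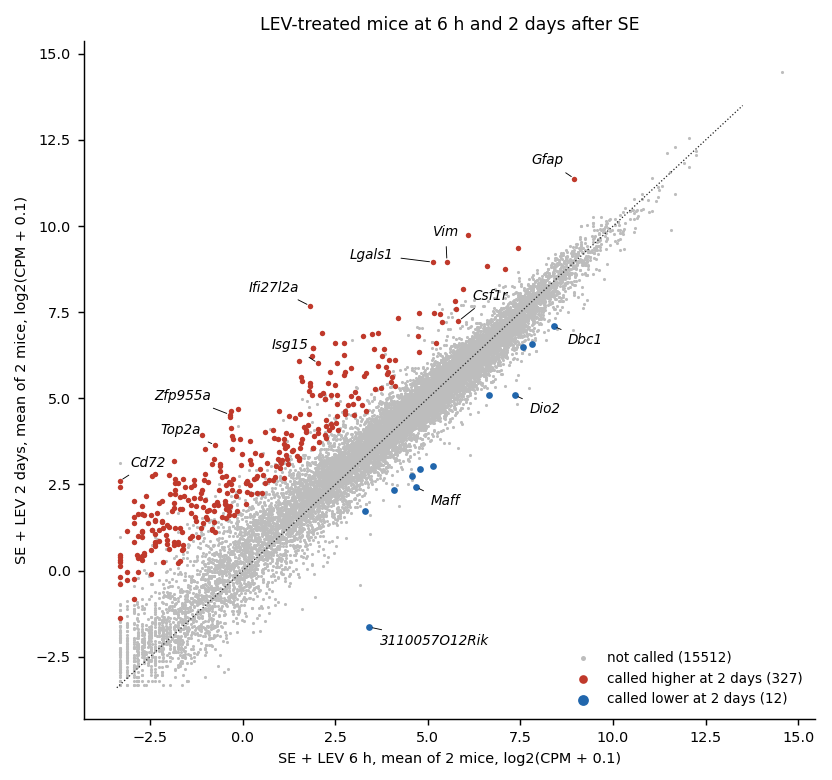
Mean log2(CPM + 0.1) of the 2 SE + LEV 6 h mice (x axis) and of the 2 SE + LEV 2 days mice (y axis), with each gene tested as a point and the dotted line marking equal levels. The 327 genes called higher (red) lie well above the line, most of them at low 6 h levels, and the 12 called lower (blue) lie below it.

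Leaving out 1 mouse at a time changed these counts. Without SE + LEV 2 days replicate 1, 41 genes rose and 0 fell, and without replicate 2 of that group the numbers were 447 and 31. They were 84 and 0 without SE + LEV 6 h replicate 1, and 99 and 11 without its replicate 2. The 2 SE + LEV 2 days mice differed in one direction, because replicate 1 was above replicate 2 in 289 (88.4%) of the 327 genes that rose but in 44.7% of all genes.

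Promoters of 4 called genes are shown, each with a short sequence that a transcription factor family is known to bind. Whether these factors acted in these mice was not tested. They are RefSeq sequences of the GRCm38.p6 build, covering 250 bases before to 50 bases after the start of transcription, and were not measured here, since the CAGE values refer to mm9. Each gene is the called one with the largest logFC in size, among those named, with a RefSeq promoter that holds the motif. Capitals mark the motif on either strand. In *Ube2c*, they mark the CHR motif and 5 matches of the NF-Y motif, counted without overlap. A further NF-Y match on the other strand, which overlaps a marked CCAAT, is not fully marked.
*Cst7*, AP-1 motif, chr2:150570165-150570464, + strand: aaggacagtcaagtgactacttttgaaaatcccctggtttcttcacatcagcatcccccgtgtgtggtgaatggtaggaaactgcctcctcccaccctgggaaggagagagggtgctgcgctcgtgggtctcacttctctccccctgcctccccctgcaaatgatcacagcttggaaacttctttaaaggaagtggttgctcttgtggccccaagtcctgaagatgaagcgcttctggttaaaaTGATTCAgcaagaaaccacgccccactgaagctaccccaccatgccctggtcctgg
*Dio2*, CRE motif, chr12:90738989-90739288, - strand: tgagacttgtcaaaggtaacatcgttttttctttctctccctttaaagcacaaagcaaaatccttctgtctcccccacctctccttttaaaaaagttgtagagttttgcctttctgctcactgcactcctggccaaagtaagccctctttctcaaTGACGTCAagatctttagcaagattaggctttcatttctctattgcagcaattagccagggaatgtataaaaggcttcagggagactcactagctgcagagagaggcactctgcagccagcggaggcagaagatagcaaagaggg
*Tgm1*, ISRE motif, chr14:55713443-55713742, - strand: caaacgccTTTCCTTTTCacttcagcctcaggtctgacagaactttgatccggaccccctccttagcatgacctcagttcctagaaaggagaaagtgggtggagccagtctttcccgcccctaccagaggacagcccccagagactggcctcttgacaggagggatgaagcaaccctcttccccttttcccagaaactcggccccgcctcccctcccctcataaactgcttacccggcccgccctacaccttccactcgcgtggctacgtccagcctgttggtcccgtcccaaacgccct
*Ube2c*, CHR motif, chr2:164769679-164769978, + strand: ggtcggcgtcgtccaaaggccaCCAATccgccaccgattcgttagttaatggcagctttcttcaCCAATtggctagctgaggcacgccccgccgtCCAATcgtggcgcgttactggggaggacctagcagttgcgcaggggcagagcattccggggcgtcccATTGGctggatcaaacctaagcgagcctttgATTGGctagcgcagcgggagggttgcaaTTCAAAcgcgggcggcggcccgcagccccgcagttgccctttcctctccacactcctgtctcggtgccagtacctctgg

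The motifs were searched as TGANTCA (AP-1), TGACGTCA (CRE, the cAMP response element), the interferon-stimulated response element (ISRE, a pair of GAAA repeats spaced by 2 bases), TTTGAA (CHR, an element of genes expressed in G2 and mitosis) and CCAAT (NF-Y), where N is any base, on both strands. No motif contains another of these motifs. A RefSeq promoter was found for 209 of the 325 symbols that rose, 7 of the 12 that fell and 10085 of the 15680 tested. The CHR was in at least 1 promoter of 30.1% of the matched genes that rose against 13.7% of all matched genes, and the ISRE was in 23 of the 209 against 3.66% of all. For NF-Y the share was 41.6% against 42.5%, and the AP-1 motif was in 8.61% against 6.13%. By list, NF-Y was in 21 of the 26 matched genes (80.8%) of replication and mitosis. Its share was 31.6% in the interferon list, 34.6% in the activated microglial list and 36.8% in the immediate early list. The CRE was in 3 of the 7 matched genes that fell and in 3.61% of all matched genes. Over all RefSeq promoters of this length the shares were 17.9% for the CHR, 3.44% for the ISRE, 37.4% for NF-Y, 7.81% for AP-1 and 1.79% for the CRE. These matches describe the letters of the window and are not binding sites.

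Among interferon-stimulated genes, which encode antiviral effectors and the sensors and transcription factors behind them, 13 of 26 rose and 0 fell. All 26 had both SE + LEV 2 days mice above both SE + LEV 6 h mice, against 26.6% of all genes. The list median logFC was 2.86. *Ifi27l2a* (mm9, chr12:104680377-104681890, - strand), a small mitochondrial protein gene induced by interferon, was at 2.59 and 4.55 CPM at 6 h and at 212 and 198 CPM at 2 days (logFC 5.86 ± 0.58 SE, adjusted p = 0.00466, limma). Both 2-day mice were alike in this gene, and its 6 h level lay in the range of the pre-SE mice (1.07 and 4.91 CPM). It overlaps *Ifi27l2b* on the same strand, so the share of each gene in these tags is uncertain. *Isg15*, which encodes a ubiquitin-like protein, was at 3.59 and 4.46 CPM at 6 h and at 83.99 and 49.99 CPM at 2 days, a rise of 16.6-fold in the means. *Ifi44* had 0 tags in both SE + LEV 6 h mice and was at 8.39 and 3.29 CPM at 2 days, at least 30.4-fold higher when the 6 h level is set to 3 tags in each library.

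*Oasl2*, of the oligoadenylate synthetase family that senses double-stranded RNA, was at 0.86 and 0.57 CPM at 6 h and at 35.1 and 17.5 CPM at 2 days. Its relative *Oas1a* was at 0.07 and 0.00 CPM against 4.25 and 1.85 CPM. *Usp18*, the protease that removes ISG15 and damps interferon signalling, was at 0.23 and 0.09 CPM against 9.01 and 4.97 CPM. In all 3 genes both 6 h mice were below 1 CPM and replicate 1 was the higher 2-day mouse. *Bst2*, which tethers virus particles to the membrane, was at 4.82 and 1.71 CPM and then at 79.1 and 30.7 CPM, and *Ifitm3*, which blocks virus entry, went from 22.6 and 32.2 CPM to 228 and 137 CPM. *Zbp1*, a sensor of Z-form nucleic acids that is in no list, was among the largest changes, with 0.23 and 0.00 CPM at 6 h and 10.3 and 4.15 CPM at 2 days (logFC 5.19 ± 0.73 SE, adjusted p = 0.00705, limma). The count of called members ranged from 4 without SE + LEV 2 days replicate 1 to 14 without its replicate 2, and was 9 and 6 without SE + LEV 6 h replicates 1 and 2.

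Of the MHC class I and immunoproteasome genes, which cut and present peptides to T cells, 4 of 14 entries rose and 0 fell, with a median logFC of 1.84. *Psmb8*, an immunoproteasome subunit, was at 2.86 and 5.98 CPM at 6 h and at 39.1 and 29.8 CPM at 2 days. *Psmb9* is entered under 2 identifiers with the same 10 values and rose by a logFC of 2.46 (adjusted p = 0.0143, limma), which makes 2 of the 4 calls 1 measurement. *H2-K1*, a class I heavy chain, was at 54.0 and 29.5 CPM and then at 251 and 122 CPM. For *B2m*, the light chain they share, the 2 SE + LEV 2 days mice lay far apart. It was at 40.8 and 16.3 CPM at 6 h and at 348 and 51.7 CPM at 2 days, and was not called (adjusted p = 0.203, limma). No entry was called without SE + LEV 6 h replicate 1 or without SE + LEV 2 days replicate 1, 1 was called without SE + LEV 6 h replicate 2, and 6 without SE + LEV 2 days replicate 2.

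Of the genes of DNA replication and mitosis, 18 of 31 rose and 0 fell, and their median logFC of 2.93 was the highest of the 29 lists. *Ccna2*, the cyclin of S phase and mitotic entry, was at 0.30 and 0.09 CPM at 6 h and at 15.1 and 5.26 CPM at 2 days (logFC 5.03 ± 0.58 SE, adjusted p = 0.00486, limma). *Top2a*, which untangles sister chromosomes, was at 0.43 and 0.57 CPM and then at 14.3 and 10.8 CPM. *Birc5*, a subunit of the chromosomal passenger complex, was at 0.66 and 0.76 CPM and then at 30.4 and 10.3 CPM. In these genes the 6 h mice were within or below the range of the pre-SE mice, and replicate 1 was the higher 2-day mouse. *Bub1*, a kinase of the spindle checkpoint, *Aurkb*, the kinase of the passenger complex, and *Ccnb2*, a cyclin of mitosis, were all below 0.2 CPM in both 6 h mice and between 1.81 and 10.4 CPM at 2 days. *Ube2c*, in no list, charges the ubiquitin ligase that ends mitosis and was at 0.63 and 1.04 CPM and then at 47.1 and 14.1 CPM.

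Of the list, 13 members were not called. All 6 members *Mcm2* to *Mcm7*, the helicase loaded in G1, were among them, with logFC values from 0.99 to 2.02. So were *Ccnd1*, the G1 cyclin, *Pcna*, the sliding clamp of DNA polymerase, and *Rrm1*, the constant subunit of ribonucleotide reductase. *Pcna* was at 74.6 and 44.5 CPM at 6 h and at 88.1 and 58.9 CPM at 2 days, so that its groups overlapped, and its logFC of 0.32 turned to -0.05 without SE + LEV 6 h replicate 2. These 9 genes were singled out after their values were seen, and a difference between kinds of gene was not tested. Among other members, also picked after their values were seen, the mitotic kinase *Aurka* was not called either (logFC 2.26, adjusted p = 0.142, limma). The S-phase genes *Rrm2*, *Tk1* and *Uhrf1* were called, with logFC values of 3.80, 3.59 and 2.93. The calls therefore do not divide cleanly by phase of the cell cycle. The count of called members was 8 and 24 without SE + LEV 2 days replicates 1 and 2, and 11 and 14 without SE + LEV 6 h replicates 1 and 2.

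Among genes of activated microglia and macrophages, 12 of 30 rose and 0 fell, and the median logFC was 2.04. Both 2-day mice were above both 6 h mice in 27, against 26.6% of all genes. *Cd72* (mm9, chr4:43459334-43467500, - strand), a receptor of B cells and reactive microglia, had the largest logFC of all called genes (5.92 ± 0.72 SE, adjusted p = 0.00486, limma). It had 0 tags in both SE + LEV 6 h mice and was at 14.97 and 2.34 CPM at 2 days, at least 45.0-fold higher with 3 tags as the 6 h level. *Cst7*, a cathepsin inhibitor whose promoter is shown above with its AP-1 motif, was at 0.17 and 0.19 CPM and then at 11.8 and 2.09 CPM. In both genes 2-day replicate 1 was far above replicate 2. The lipid receptor *Trem2* (7.51 and 4.08 CPM, then 54.7 and 31.9 CPM) and the actin-binding *Aif1*, better known as IBA1 (11.5 and 11.8 CPM, then 93.4 and 79.8 CPM), differed less between the 2 mice. The IgG receptor *Fcgr1* was at 4.25 and 4.84 CPM and then at 48.0 and 20.5 CPM. Not every abundant member followed. *Apoe*, the main lipoprotein of astrocytes, was at 6353 and 2801 CPM at 6 h and at 3047 and 3648 CPM at 2 days (logFC -0.34, adjusted p = 0.78, limma), a sign that turned without SE + LEV 6 h replicate 1. *Cd180*, a B-cell and macrophage relative of the Toll-like receptors in no list, was at 1.03 and 0.09 CPM and then at 33.5 and 7.02 CPM. *Cd72* and *Cd180* each overlap another gene on the opposite strand, and whether strand was used in summing tags to genes is not given in the sources used here. Of the 339 called genes, 109 overlap another annotated gene on either strand, among them *Ccna2*, *Csf1r*, *Ccl6* and *Dio2*.

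Homeostatic microglial genes, which mark microglia at rest, also rose, with 6 of 14 called, 0 called lower and a median logFC of 1.44. They had been lower at 6 h than before SE. The list median, relative to the mean of the pre-SE mice on the log2 scale, was -0.49 and -0.63 in the SE + LEV 6 h mice and 0.89 and 1.03 in the SE + LEV 2 days mice. *Tmem119*, a membrane protein of resting microglia, was at 14.1 and 15.5 CPM before SE, at 7.84 and 9.20 CPM at 6 h and at 43.5 and 23.3 CPM at 2 days (logFC 1.89 ± 0.34 SE, adjusted p = 0.0184, limma). *Gpr34*, a lysophospholipid receptor, was at 12.2 and 9.92 CPM before SE, at 4.25 and 4.84 CPM at 6 h and at 21.97 and 44.56 CPM at 2 days. Both genes were below both pre-SE mice at 6 h and above them at 2 days. *Csf1r*, the receptor on which microglial survival depends, was at 69.4 and 46.0 CPM and then at 154 and 149 CPM. *Fcrls*, an Fc receptor-like protein of microglia, had the largest logFC of the list, 3.54 (7.81 and 5.41 CPM, then 114 and 51.3 CPM). The transcription factor *Mef2c*, which neurons express as well, was the 1 member with a negative logFC (-0.61, adjusted p = 0.48, limma). Without 1 mouse at a time the called members numbered 3 and 2 (SE + LEV 6 h replicates 1 and 2) and 1 and 6 (SE + LEV 2 days replicates 1 and 2), and those of the activated list 5, 4, 4 and 16 in that order.

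Complement genes, whose products tag synapses and debris for uptake, rose in 5 of 13 cases and fell in 0, with a median logFC of 1.41. All 3 chains of C1q, which starts the classical pathway, were called. *C1qc* was at 51.6 and 73.5 CPM at 6 h and at 343 and 247 CPM at 2 days (logFC 2.24 ± 0.26 SE, adjusted p = 0.00486, limma), *C1qa* was at 48.7 and 57.1 CPM and then at 335 and 153 CPM, and *C1qb* was at 35.2 and 49.6 CPM and then at 161 and 136 CPM. *C4b*, which C1 cleaves, was at 15.1 and 14.5 CPM and then at 59.9 and 44.7 CPM, and *Itgb2*, the beta chain of complement receptor 3, was at 2.53 and 3.89 CPM and then at 18.2 and 15.3 CPM. In all 5 genes both 2-day mice were well above both 6 h mice. Called members numbered 1 and 2 without SE + LEV 6 h replicates 1 and 2, and 1 and 5 without SE + LEV 2 days replicates 1 and 2.

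Of 30 chemokines and cytokines, 5 rose and 0 fell, and the median logFC was 0.38. *Ccl6* and *Ccl9*, chemokines of myeloid cells, were at 3.85 and 3.23 CPM and at 4.78 and 2.28 CPM at 6 h and reached 37.8 and 30.9 CPM and 21.5 and 16.1 CPM at 2 days. *Ccl8*, a ligand of monocytes, was near 0.1 CPM in both 6 h mice and at 2.77 and 2.59 CPM at 2 days. *Cxcl13*, which attracts B cells, had 0 tags in both 6 h mice and 0.66 and 1.48 CPM at 2 days, at least 5.57-fold higher against 3 tags. The transmembrane chemokine *Cxcl16* was at 1.43 and 1.14 CPM and then at 12.3 and 4.64 CPM. *Cxcl10*, the interferon-induced ligand of T cells, had a large but uneven difference, from 3.02 and 1.33 CPM to 56.0 and 7.52 CPM, and was not called (logFC 3.29 ± 0.89 SE, adjusted p = 0.119, limma). *Spp1*, which encodes osteopontin, was more uneven still, at 7.54 and 7.59 CPM at 6 h and at 370 and 28.4 CPM at 2 days (adjusted p = 0.162, limma). In both genes the difference rested mainly on SE + LEV 2 days replicate 1. No member was called without SE + LEV 6 h replicate 1, without its replicate 2 or without SE + LEV 2 days replicate 1, and 8 were called without SE + LEV 2 days replicate 2. Of 31 genes chosen because PCR had been run on them, 4 rose in the CAGE table, which were *Ccl6*, *Cxcl13*, *Tmem119* and *Gfap*, and 0 fell. Blood leukocyte markers were few, with 6 of 22 listed genes in the table. Of these only *Plac8*, of myeloid and lymphoid cells, was called (0.27 and 0.09 CPM, then 3.43 and 2.96 CPM). The list had 0 calls without SE + LEV 6 h replicate 1, its replicate 2 or SE + LEV 2 days replicate 1, and 2 without SE + LEV 2 days replicate 2.

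In the list of pan-reactive astrocytes 3 of 14 were called higher and 0 lower, with a median logFC of 1.59. *Gfap*, the intermediate filament that defines reactive astrocytes, was already raised at 6 h and rose again, from 246 and 230 CPM before SE to 520 and 473 CPM at 6 h and 3071 and 2312 CPM at 2 days (logFC 2.43 ± 0.36 SE, adjusted p = 0.00847, limma). *Vim*, its partner filament vimentin, was at 18.9 and 14.7 CPM before SE, at 49.2 and 42.3 CPM at 6 h and at 798 and 314 CPM at 2 days. *Timp1*, an inhibitor of metalloproteinases, was at 1.93 and 3.89 CPM at 6 h and at 181 and 25.0 CPM at 2 days (adjusted p = 0.0221, limma), and overlaps *Syn1* on the opposite strand. *Serpina3n*, a protease inhibitor, was at 66.8 and 85.7 CPM and then at 426 and 127 CPM without a call (adjusted p = 0.127, limma). In these 4 genes replicate 1 was again the higher 2-day mouse. Of the A1-type and A2-type lists, 1 of 11 rose in each, *Psmb8* and *Tgm1*. Without SE + LEV 6 h replicates 1 and 2 and SE + LEV 2 days replicates 1 and 2, in that order, the A1-type calls numbered 0, 1, 0 and 2 and the A2-type calls 0, 0, 0 and 5. *Tgm1*, a transglutaminase with an ISRE in the promoter shown above, was at 0.27 and 0.00 CPM at 6 h and at 21.5 and 2.14 CPM at 2 days (logFC 5.17 ± 1.03 SE, adjusted p = 0.0321, limma). RefSeq gives 2 promoters for *Tgm1*, and the other is not shown. None of 17 homeostatic astrocyte genes was called in either direction, while before adjustment p was under 0.05 for 3 higher and 0 lower members and 1 was called lower without SE + LEV 2 days replicate 2, and the glutamate transporter gene *Slc1a2* was at 1350 and 1009 CPM and then at 801 and 976 CPM. Called pan-reactive members numbered 1 in each of the 3 fits without SE + LEV 6 h replicate 1, its replicate 2 or SE + LEV 2 days replicate 1, and 8 without SE + LEV 2 days replicate 2.

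Among 32 genes of extracellular matrix, proteases and annexins, 5 rose and 0 fell, with a median logFC of 0.48. *Lgals1*, encoding galectin-1, was at 34.3 and 36.2 CPM at 6 h and at 692 and 355 CPM at 2 days (logFC 3.81 ± 0.35 SE, adjusted p = 0.00466, limma), and the calcium-binding *S100a6* was at 45.3 and 100.4 CPM and then at 855 and 845 CPM. Its relative *S100a4* was at 4.82 and 6.26 CPM and then at 134 and 70.8 CPM. The macrophage elastase *Mmp12* was at 0.07 and 0.09 CPM and then at 5.72 and 1.52 CPM, close to the threshold (adjusted p = 0.0472, limma). *Klk6*, a protease of oligodendrocytes in no list, was at 0.56 and 0.85 CPM and then at 49.4 and 9.86 CPM. Called members of the list numbered 2 and 3 without SE + LEV 6 h replicates 1 and 2, and 2 and 9 without SE + LEV 2 days replicates 1 and 2.

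**Figure D2:**
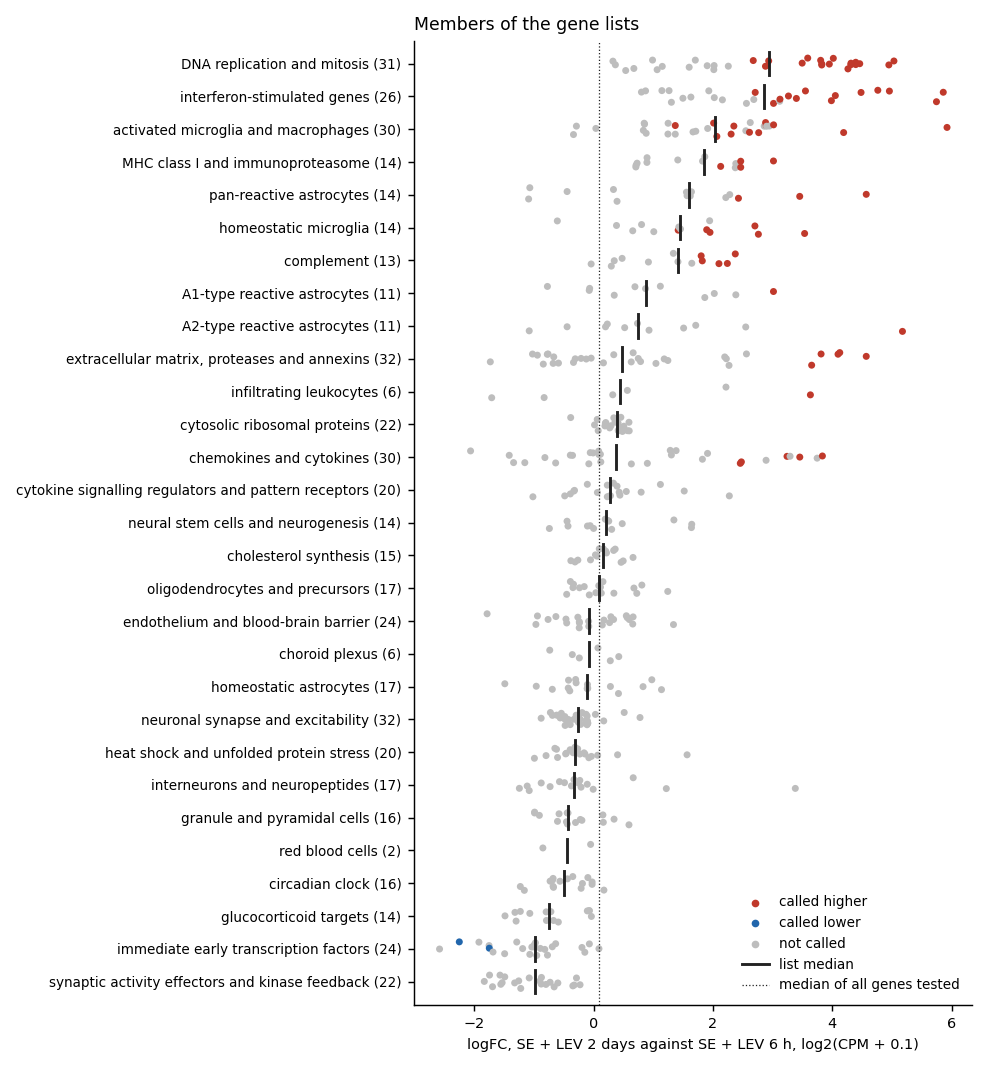
The logFC of SE + LEV 2 days against SE + LEV 6 h mice (x axis, log2(CPM + 0.1) scale) for each tested member of 29 gene lists, ordered by list median, with the number tested in parentheses. The replication, interferon and activated microglial lists have medians between 2.04 and 2.93 and many red (called higher) members, and the 2 activity lists have medians of -0.99 with 2 blue (called lower) members.

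Activity-regulated genes lay lower at 2 days, but few of them passed the test. Of 24 immediate early transcription factors 2 fell and 0 rose, 23 had a negative logFC, and the median logFC was -0.99. Both 2-day mice were below both 6 h mice in 13, against 14.6% of all genes. *Maff* (mm9, chr15:79177971-79189502, + strand), a small Maf protein, was at 1.03 and 0.52 CPM before SE, at 42.7 and 15.2 CPM at 6 h and at 6.08 and 4.56 CPM at 2 days (logFC -2.25 ± 0.48 SE, adjusted p = 0.0422, limma). *Klf4*, a zinc-finger factor, was at 2.86 and 3.87 CPM before SE, at 20.1 and 14.04 CPM at 6 h and at 3.91 and 6.2 CPM at 2 days (adjusted p = 0.0447, limma). Both were above the pre-SE mice in both groups, *Klf4* only narrowly at 2 days. *Fos*, the AP-1 subunit, was at 115 and 32.2 CPM at 6 h and at 24.1 and 14.7 CPM at 2 days, and its logFC of -1.69 was not called (adjusted p = 0.231, limma). *Egr1*, a zinc-finger factor of active neurons, was at 835 and 169 CPM and then at 337 and 105 CPM. Its estimate was not called (adjusted p = 0.651, limma), and turned from negative to a logFC of 0.155 without SE + LEV 6 h replicate 1. *Fosl1*, a Fos-family gene that the study followed by PCR, differed in neither direction beyond its spread, at 2.29 and 2.94 CPM at 6 h and at 7.16 and 1.03 CPM at 2 days (logFC 0.09 ± 0.79 SE, adjusted p = 0.975, limma). Without SE + LEV 2 days replicate 1 its logFC was -1.25, without SE + LEV 6 h replicate 1 it was -0.09, and under median-of-ratios rescaling it was -0.001. No transcription factor of the list was called without SE + LEV 6 h replicate 1 or SE + LEV 2 days replicate 1, 3 were called lower without SE + LEV 6 h replicate 2 and 2 without SE + LEV 2 days replicate 2.

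The effectors of synaptic activity gave no call with all mice in the fit. All 22 had a negative logFC, and the median was -0.99. Of these, 14 had both 2-day mice below both 6 h mice, against 14.6% of all genes. An unadjusted p under 0.05 was found for 8, against 428 lower genes of the 15851 tested, yet 0 passed the adjusted test in limma. *Ptgs2*, the inducible cyclooxygenase, was at 122 and 53.3 CPM at 6 h and at 52.5 and 27.7 CPM at 2 days, and *Plk2*, a kinase that scales synapses down, was at 1096 and 557 CPM and then at 486 and 373 CPM. The glucocorticoid targets (14 of 14 negative, median -0.76) and the clock genes (15 of 16 negative, median -0.50) had no called member either, with 4 and 3 members lower at an unadjusted p under 0.05. Without SE + LEV 2 days replicate 2, 2 synaptic effectors and 1 clock gene were called lower, and without SE + LEV 6 h replicate 2, 1 glucocorticoid target and 1 clock gene. *Errfi1*, an inhibitor of EGF receptor signalling, was at 467 and 183 CPM at 6 h and at 107 and 101 CPM at 2 days (adjusted p = 0.161, limma). SE + LEV 6 h replicate 1 was the higher 6 h mouse in all 3 genes. The list medians of both LEV groups lay above the pre-SE mice in each mouse for the transcription factors (2.16 and 1.18 at 6 h, 1.05 and 0.50 at 2 days, log2 scale).

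**Figure D3:**
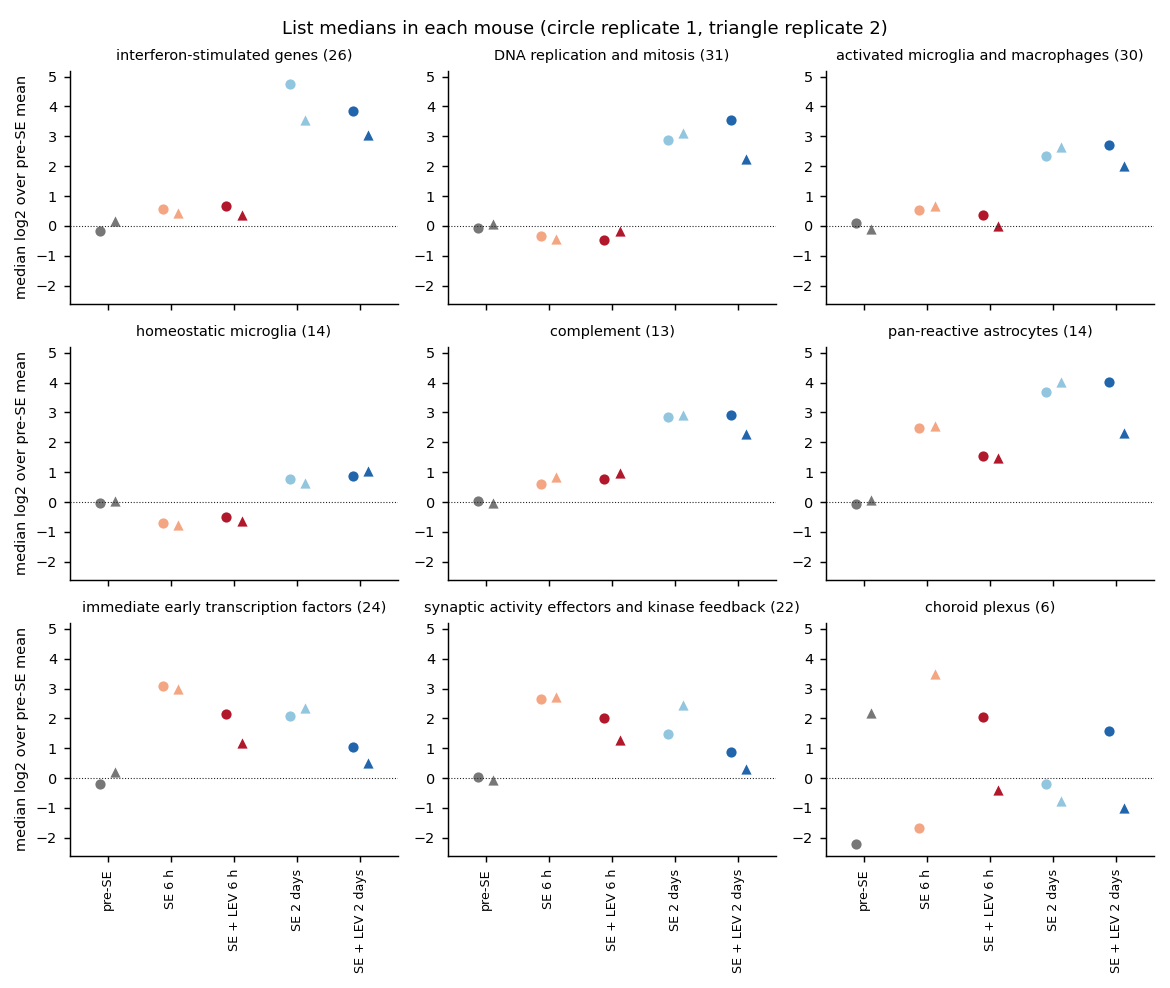
Median over list members of log2(CPM + 0.1) minus the mean of the pre-SE mice (y axis), for each of the 10 mice in 5 groups, with circles for replicate 1 and triangles for replicate 2. The interferon, replication, microglial, complement and astrocyte medians are higher in both SE + LEV 2 days mice than in both SE + LEV 6 h mice, the 2 activity lists are lower, and the choroid plexus markers differ widely between the 2 mice of most groups, with replicate 1 higher in both SE + LEV groups and replicate 2 higher in the pre-SE and SE 6 h groups.

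The 12 genes that fell were all above both pre-SE mice at 6 h, against 17% of all genes, and 7 were still above them at 2 days, against 22.6% of all genes. The median log2 ratio to the pre-SE mice went from 2.42 at 6 h to 0.62 at 2 days. These genes were chosen for 6 h values above the 2-day values. Their place against the pre-SE mice at 6 h and at 2 days is therefore partly set by that choice. *Dio2*, which encodes the deiodinase that activates thyroid hormone in astrocytes and whose promoter above holds a CRE, was at 80.2 and 44.2 CPM before SE, at 207 and 128 CPM at 6 h and at 22.2 and 52.2 CPM at 2 days (logFC -2.26 ± 0.45 SE, adjusted p = 0.0315, limma). *Arl4d*, a small GTPase of the Arf family, was at 34.7 and 22.2 CPM at 6 h and at 6.45 and 8.99 CPM at 2 days. *Pcdh8*, an activity-regulated protocadherin of synapses, was at 115 and 87.9 CPM and then at 33.8 and 35.0 CPM. The 2 groups did not overlap in any of the 3. *Mapk4*, an atypical MAP kinase, *Dbc1*, a brain protein of the BRINP family, and *Ankrd33b* had the smallest decreases, with logFC values of -1.22, -1.30 and -1.10. *Rai2* was at 30.04 and 18.88 CPM and then at 6.33 and 6.90 CPM, and *Gxylt2*, a xylosyltransferase that acts on Notch, was at 9.93 and 9.58 CPM and then at 3.47 and 2.96 CPM. *Gm9581* stood out by its 6 h level, at 45.0 and 27.2 CPM in the SE + LEV 6 h mice, 5.24 and 12.7 CPM in the SE + LEV 2 days mice and between 3.96 and 8.77 CPM in the other 6 mice. *3110057O12Rik* had the largest decrease (9.17 and 12.1 CPM, then 0.14 and 0.33 CPM) and overlaps 3 other genes on the opposite strand.

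At 6 h, 61 of the 327 genes that rose (18.7%) had both SE + LEV mice above both pre-SE mice and 93 (28.4%) had both below, shares near those of all genes (17% and 25.5%), and the median log2 ratio to the pre-SE mice was -0.22. These genes were chosen for 2-day values above the 6 h values. Their place against the pre-SE mice, at 6 h as well as at 2 days, is therefore partly set by that choice. At 2 days 325 (99.4%) were above both pre-SE mice, against 22.6% of all genes, and the median was 2.70. *Zfp955a* (mm9, chr17:33378464-33391985, - strand), a zinc-finger gene, was an exception. It was at 18.9 and 30.2 CPM before SE, at 0.83 and 0.57 CPM at 6 h with LEV and at 20.8 and 25.2 CPM at 2 days with LEV (logFC 4.87 ± 0.61 SE, adjusted p = 0.00491, limma). The 4 untreated mice ranged from 5.96 to 30.3 CPM, so that only the SE + LEV 6 h mice were below 5.96 CPM. Among the called genes that rose, 10 had 0 tags in both 6 h mice and 44 had at most 3, so their logFC depends on the pseudocount.

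**Figure D4:**
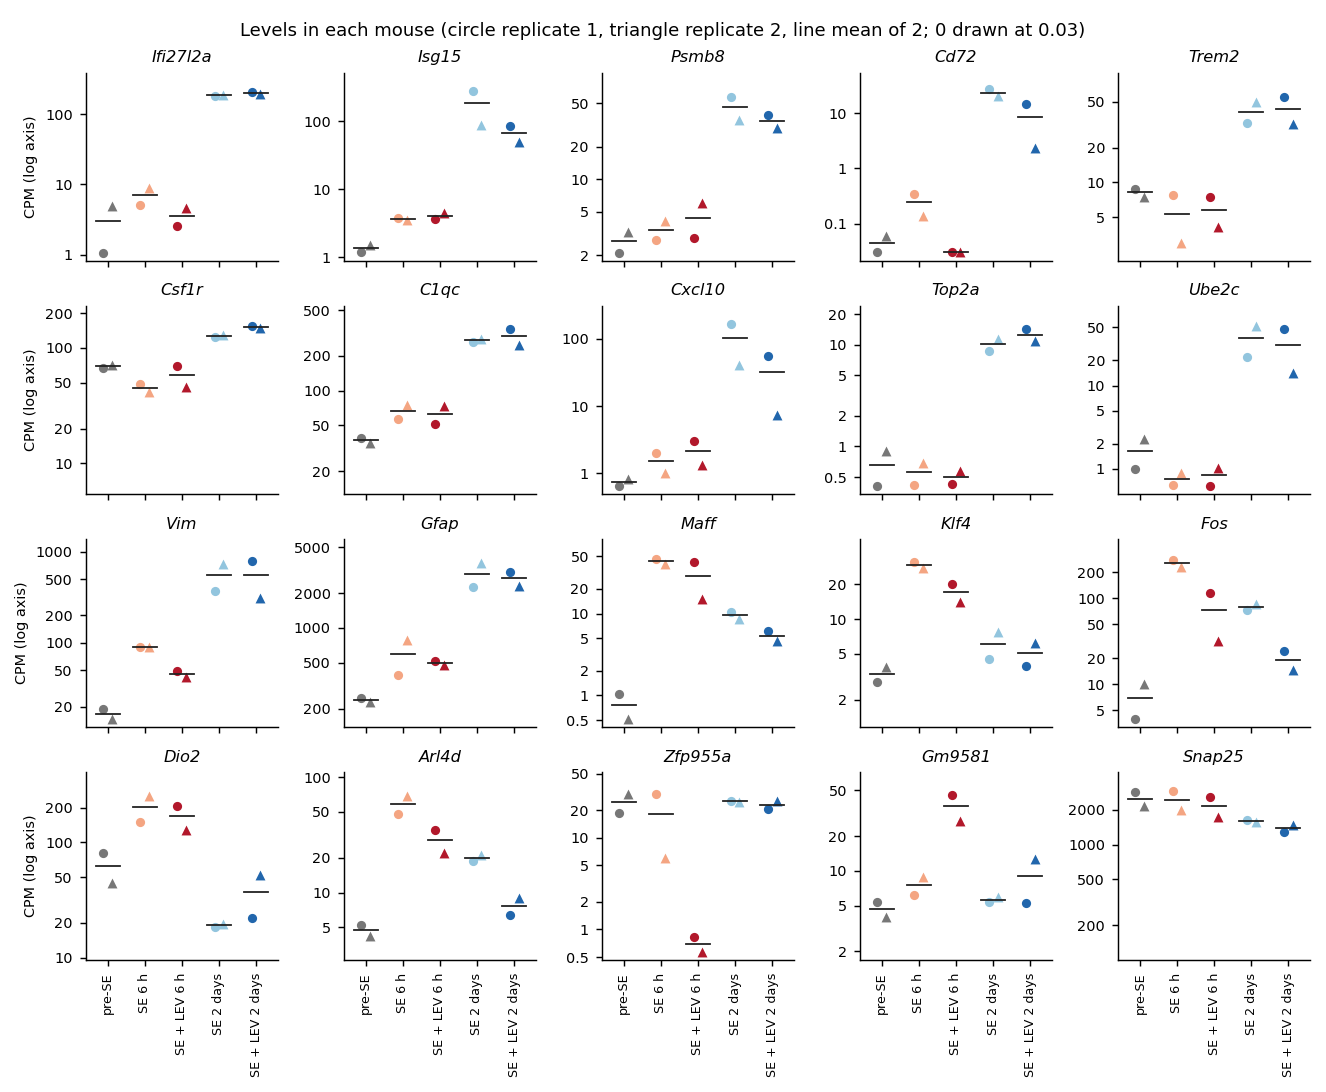
CPM on a log axis for 20 genes in each of the 10 mice, with circles for replicate 1, triangles for replicate 2 and a line for the mean of 2. The first 12 genes are higher in both SE + LEV 2 days mice than in both SE + LEV 6 h mice. *Maff* to *Arl4d* are lower. *Zfp955a* is lowest and *Gm9581* highest in the SE + LEV 6 h mice. The neuronal *Snap25*, which was not called, is somewhat lower at 2 days.

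Markers of the other hippocampal cell types gave 0 calls in limma. Of 32 genes of neuronal synapses and excitability 28 had a negative logFC, the median was -0.26 and 0 had an unadjusted p under 0.05. The vesicle fusion gene *Snap25* was at 2597 and 1752 CPM and then at 1297 and 1481 CPM, *Camk2a*, the kinase of synaptic plasticity, was at 3043 and 1713 CPM and then at 2055 and 1419 CPM, and *Sv2a*, the gene of the LEV binding site, was at 143 and 129 CPM and then at 113 and 120 CPM (logFC -0.22 ± 0.21 SE, adjusted p = 0.712, limma). Medians were -0.33 for 17 interneuron and neuropeptide genes, -0.44 for 16 granule and pyramidal cell genes, -0.08 for 24 endothelial genes, 0.08 for 17 oligodendrocyte genes and 0.21 for 14 neural stem cell genes. *Gad1*, the GABA-synthesizing enzyme of interneurons, was at 255 and 235 CPM and then at 170 and 159 CPM. The heat shock list (median -0.32), the cholesterol list (0.16), the ribosomal protein list (0.38), the cytokine regulators (0.27), the red blood cell genes (-0.45) and the choroid plexus markers (-0.09) also had 0 called members. Before adjustment, p was under 0.05 for 13 members with a higher and 10 with a lower level, over these 12 lists. Without SE + LEV 2 days replicate 2, 3 cytokine regulators and 1 gene each of the heat shock, neuronal and neural stem cell lists were called higher.

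The same interval was then compared in untreated mice. From SE 6 h to SE 2 days 498 genes rose (3.14% of those tested) and 176 fell (1.11%). The 266 genes that rose in both were 81.3% of those with LEV and 53.4% of those without. The 4 that fell in both were 33.3% and 2.27%, and none was called in opposite directions. Of the 327 genes that rose with LEV, 326 had a higher estimate without it, with a median logFC of 2.71 against 2.83. The 61 that were not called without LEV had medians of 2.24 with LEV and 1.37 without. The 176 genes that fell in untreated mice had a median logFC of -1.84 there and -0.67 with LEV. Of them, 119 (67.6%) had both SE + LEV 2 days mice below both SE + LEV 6 h mice, against 14.6% of all genes. The 498 that rose in untreated mice had medians of 2.49 without LEV and 2.13 with it. Of them, 472 (94.8%) had both SE + LEV 2 days mice above both SE + LEV 6 h mice, against 26.6% of all genes. Each of these sets was chosen by its calls, which by itself favours a larger median in the comparison that made the calls. The gaps between these medians were not tested and are no measure of an effect of LEV. The 2 comparisons share no mice but share the estimate of the spread. By list, the counts of members that rose were 24 of 26 interferon-stimulated genes without LEV against 13 with it, with medians of 3.80 and 2.86. For MHC class I and immunoproteasome genes they were 11 and 4 of 14, with medians of 1.74 and 1.84, and for replication and mitosis 23 and 18 of 31, with medians of 3.15 and 2.93. Activated microglial genes gave 14 and 12 of 30 (medians 1.87 and 2.04) and homeostatic ones 9 and 6 of 14 (1.73 and 1.44). No member of any list was called for the difference between the shifts. *Isg15* reached 276 and 88.7 CPM in SE 2 days mice, and *Cxcl10* was called without LEV (logFC 5.74, adjusted p = 0.0077, limma). Without 1 untreated mouse at a time, 116 to 147 genes rose and 42 to 46 fell.

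The difference between the 2 shifts was tested gene by gene, and 0 genes were called (0% of those tested) in limma, where before adjustment p was under 0.05 for 251 higher and 126 lower shifts under LEV, with a lowest adjusted p of 0.623. edgeR's quasi-likelihood test called 0 and DESeq2 called 3, which were *Zfp184*, *Zfp955a* and *Map3k5*. The median standard error of the difference was 0.48, so that small differences were not detectable at 2 mice a group. Only genes with a mean of at least 1 CPM in a group after SE were ranked by p. Of these, the smallest p among higher shifts belonged to *Zfp184*, *Acot5* and *Chrne*. *Zfp184*, a zinc-finger gene, was at 13.7 and 14.9 CPM in SE 6 h mice and between 1.06 and 1.61 CPM in all other mice. *Chrne*, a subunit of the muscle acetylcholine receptor, was at 16.4 and 16.9 CPM in SE 6 h mice and at most at 0.47 CPM elsewhere. *Acot5*, a peroxisomal thioesterase, was at 1.26 and 0.94 CPM in SE + LEV 2 days mice and had 0 tags in the other 8 mice. In the first 2 genes it was the untreated 6 h mice that stood apart. Among lower shifts of the genes ranked, the smallest p belonged to *Gm14637*, *Jub* and *Tmem119*. *Tmem119* rose in both, from 2.21 and 2.88 CPM to 36.4 and 30.8 CPM without LEV, and its difference between shifts was -1.78 ± 0.47 SE. All adjusted p values of these 6 genes were above the threshold.

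**Figure D5:**
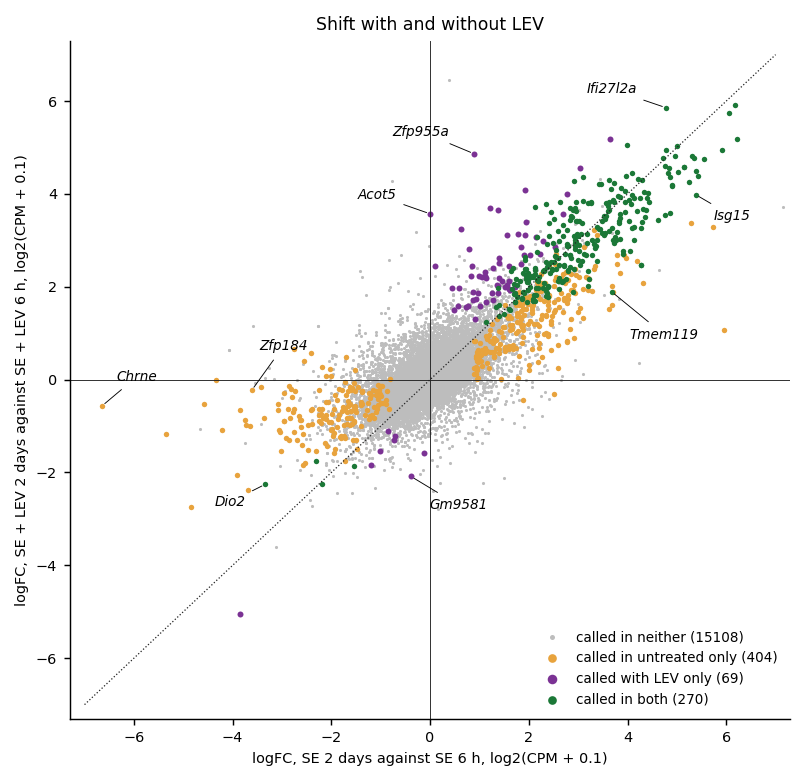
The logFC of SE 2 days against SE 6 h mice (x axis) and of SE + LEV 2 days against SE + LEV 6 h mice (y axis), both on the log2(CPM + 0.1) scale, for each gene tested, with the dotted line marking equal shifts. The 270 genes called in both (green) lie in the upper right and lower left quadrants, and *Chrne*, *Zfp184*, *Acot5* and *Zfp955a* lie far from the line.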

How the data were processed

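CAGE libraries of the whole hippocampus were prepared from 10 mice, 2 in each of 5 groups, and the groups were taken from the GEO labels. Replicates are separate mice. The authors mapped tags to mm9 with BWA 0.7.17 and HISAT2 2.0.5, then clustered tags with RECLU and dropped clusters below 0.1 CPM. The deposited values are CPM per gene for 15900 genes with 2 decimals. How clusters were summed to genes, and whether strand was used, is not given in the sources used here. Dividing by the CPM of 1 tag gave whole tag counts for 100% of values, and these served only for the count-based alternatives.

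The 15851 genes that reached 0.1 CPM in 2 or more libraries were fitted on log2(CPM + 0.1) with limma 3.58.1 (R 4.3.3), with 5 group means over all 10 libraries and a mean-variance trend. Tests were two-sided, with Benjamini-Hochberg adjustment and a threshold of 0.05. SE is the standard error beside a ± sign and status epilepticus elsewhere. No column of per-mouse values was left out, and all 15900 identifiers matched the mm9 annotation.

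Genes were named by rule. These were in each direction the 14 called genes of largest logFC with a mean of at least 1 CPM in the higher group, up to 6 called and 3 most abundant members of each list, the genes of the study's PCR, *Sv2a*, and the 3 genes in each direction with the smallest p for the difference between shifts. The last were taken from genes with a mean of at least 1 CPM in a group after SE. The genes, lists and tests were chosen with earlier results of these data known. Alternatives were other pseudocounts, filters, scaling and samples, a replicate block, edgeR 4.0.16 and DESeq2 1.42.0. Tests were first tried on simulated data.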

Additional observations from a re-analysis of the deposited data

How the results depend on the processing

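The 327 genes called higher and 12 called lower in the LEV shift became 96 and 1 when only the SE + LEV groups entered the fit, 213 higher in edgeR's quasi-likelihood test, 520 and 106 in DESeq2, and 83 lower in edgeR's exact test. Without 1 SE + LEV mouse they ranged from 41 to 447 higher and from 0 to 31 lower. Of the untreated shift, 319 were higher in the quasi-likelihood test, 586 lower in DESeq2, and 801 higher and 637 lower in the exact test. Without 1 untreated mouse the counts ranged from 116 to 147 higher and from 42 to 46 lower. The difference between shifts gave 1 call at a pseudocount of 0.5, 2 at a pseudocount of 1, 2 without the mean-variance trend and 3 in DESeq2. The causes were not tested.

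Estimates changed sign for *Fosl1* under median-of-ratios rescaling (-0.001). With 1 SE + LEV mouse left out, logFC ranged from -0.93 to 0.251 for *Apoe*, from -2.147 to 0.155 for *Egr1*, from -1.254 to 1.429 for *Fosl1*, from -0.051 to 0.694 for *Pcna*, from -0.057 to 1.359 for *Actb*, from -1.822 to 0.689 for *Chrne* and from -0.455 to 0 for *Zfp184*. None of these was called. Of 68 named genes that were called, 18 to 60 kept the call with 1 SE + LEV mouse left out, 38 when only the SE + LEV groups entered the fit, 60 in the quasi-likelihood test and 67 in DESeq2.

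Replicate numbers belong to different animals and do not pair the libraries. With the replicate number as a block, 261 genes were called higher and 11 lower. With 2 mice a group and 3 tags worth up to 0.285 CPM, changes in genes of low CPM are the least certain.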

Other observations

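Replication-dependent histone genes, examined after their values were seen, were called higher in 18 of 61 cases from 6 h to 2 days with LEV and lower in 0, with a median logFC of 1.36, and 24 were called higher in untreated mice. Many are near-identical copies whose tags may be split, and 2 entries called higher, *Hist1h3c* and *Gm11336*, have the same 10 values. *Hist1h3b*, a core histone gene, was at 4.82 and 3.79 CPM at 6 h and at 212 and 66.5 CPM at 2 days.

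The largest estimate of all genes was not called. *Gm6505*, singled out for it, had 0 tags in both SE + LEV 6 h mice and was at 6.22 and 12.03 CPM at 2 days (logFC 6.45, adjusted p = 0.170, limma), while the pre-SE mice were at 21.3 and 6.63 CPM and the SE 2 days mice at 7.97 and 0.05 CPM. *Gal*, which encodes the neuropeptide galanin and was also chosen after its values were seen, varied between mice of a group, from 2.23 and 3.89 CPM at 6 h to 105 and 9.45 CPM at 2 days with LEV, and to 17 and 334 CPM at 2 days without it.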
